A study of Homo sapiens with 27 samples.

Results

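Each of 9 human cell lines drew most of its cytochrome P450 messenger RNA from a few members of the family, and those members differed from line to line. The family was taken as the protein-coding genes of GENCODE 29 whose symbol is CYP, a family number, a subfamily letter and a gene number, without CYP51A1 and CYP4B1. This gave 53 genes, all with transcripts in the tables, of 19675 protein-coding genes with a matched transcript. The rule reads gene type and symbol, and no measured value enters it. A mean of 1 TPM was reached in at least 1 line by 24 of the 53, and 15 of these reached 10 TPM. TPM is transcript abundance corrected for length and scaled to all transcripts of a library, summed here over the transcripts of a gene.

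The study sequenced polyadenylated RNA from HepG2 (labelled liver), Caco2 (colon), RT4 (labelled kidney, generally known as a bladder tumour line), A549 (lung), the melanoma lines SK-Mel 28 and SK-Mel 24 (skin), U2-OS (bone), U251 (brain) and BJ (labelled epithelial, generally known as skin fibroblasts). Each line had 3 libraries, called biological replicates in the series design, so n = 3 for every line mean and SD below. No treatment is labelled. Medium for SK-Mel 24 held 15% serum and that for the other 8 lines 10%. The basal medium was DMEM for A549 and BJ, McCoy for RT4 and U2-OS, and EMEM for the others, so line, tissue and culture medium cannot be told apart. In such bulk samples, fewer cells with a transcript and less of it per cell cannot be told apart either.

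Cytochrome P450 enzymes hold a heme group on a cysteine and use oxygen and electrons to oxidise fat-soluble substrates. Most sit in the endoplasmic reticulum and take electrons from P450 oxidoreductase (POR), while a few sit in mitochondria and take them from ferredoxin. Liver and intestine are known for the members that clear drugs, liver for those that make bile acids, adrenal and gonad for those that make steroid hormones, and kidney for those that handle vitamin D.

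Libraries held 15597117 to 32583547 estimated counts. The mitochondrial genome took 71.1%, 33.8% and 32.6% of the counts of HepG2 libraries 1, 2 and 3, against 0.928% to 5.72% in the other lines. TPM is a share of the library, so HepG2 values are also given below as TPM rescaled over non-mitochondrial transcripts where the order of lines turns on it. Of 6 hepatocyte markers, 6 reached 1 TPM in HepG2 and 6 in Caco2, where 4 of 6 enterocyte markers did. RT4 had 6 of 6 urothelial and 1 of 6 kidney tubule markers, and BJ 6 of 6 fibroblast and 2 of 6 epithelial markers. U251 had 4 of 6 glial markers, U2-OS 3 of 6 osteoblast markers, and A549 0 of 6 alveolar and airway markers. SK-Mel 24 had 5 of 6 glial markers, with sums of 6839.8 to 9583.4 TPM, against 142.5 to 225.9 in U251. HepG2 had 3 of 6 osteoblast markers, with sums of 23.53 to 56.21 TPM, against 15.99 to 21.5 in U2-OS. The part of these features in the P450 levels was not tested.

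What unites the family in sequence is a short stretch around the heme-binding cysteine, where a phenylalanine, a glycine, an arginine, the cysteine and a further glycine stand at fixed spacing. Its coding DNA is shown for the members at 10 TPM or more to let the stretch be compared between the genes that carry the results. Of the 15 such members, 11 had an entry in the RefSeq promoter table and were searched, and 10 of the 11 held the pattern. CYP20A1 gave no match in its coding transcripts. Each segment is 30 bases, 5′ to 3′, from the GENCODE 29 coding transcript with the highest TPM, in the member's highest line, that held the pattern, with the cysteine codon in capitals.
CYP27A1: tttggctatggggtccgggccTGCctgggc
CYP2J2: ttctcaataggaaagcgggcaTGCctcgga
CYP2S1: ttctccttagggaagcgtgtcTGCcttgga
CYP2W1: ttctctgcaggccgccgcgtcTGTgttggg
CYP2R1: ttttccctaggaagaagacatTGTcttgga
CYP4F11: ttctcggcagggcccagaaacTGCatcggg
CYP3A5: tttggaactggacccagaaacTGCattggc
CYP4V2: ttctctgctggccccaggaacTGTataggt
CYP2U1: tttgggatagggaagcgggtgTGTatggga
CYP26B1: ttcggtggcggtgtccggaccTGCctgggc
On GRCh38 the segments of CYP27A1 (chr2:218814686-218814715, plus strand), CYP3A5 (chr7:99650157-99650186, minus strand) and CYP26B1 (chr2:72132437-72132466, minus strand) each lay within 1 exon. The others were split by an intron, and spanned chr1:59893810-59900974 for CYP2J2 (minus strand), chr19:41206090-41206299 for CYP2S1 (plus strand), chr7:988409-988654 for CYP2W1 (plus strand), chr11:14878278-14879123 for CYP2R1 (minus strand), chr19:15913897-15914321 for CYP4F11 (minus strand), chr4:186209245-186210470 for CYP4V2 (plus strand) and chr4:107949508-107950264 for CYP2U1 (plus strand). The cysteine codon was TGT in CYP2W1, CYP2R1, CYP4V2 and CYP2U1 and TGC in the others shown.

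The summed TPM of the 53 members was highest in A549, at 607.1 ± 59.7 (SD), and lowest in BJ, at 47.84 ± 4.67. SK-Mel 28 had 227.1 ± 19.9, Caco2 201.6 ± 35.73, SK-Mel 24 169.7 ± 35.71, RT4 151.7 ± 22.14, U2-OS 116.1 ± 8.79 and U251 65.03 ± 5.83. HepG2 libraries 1, 2 and 3 had sums of 48.91, 131.5 and 134.4 TPM, and 230.5 ± 2.32 after rescaling without mitochondrial transcripts. The spread between HepG2 libraries was thus much smaller on the rescaled values. The 3 leading members held between 55.3% (U251) and 84.7% (A549) of a line's sum. CYP24A1 alone made up 72.0% in A549, CYP27A1 66.2% in SK-Mel 28, 57.5% in SK-Mel 24 and 58.5% in HepG2, and CYP2J2 56.7% in RT4. In Caco2, BJ and U251 the leading genes, CYP2S1, CYP2U1 and CYP27A1, held 25.2%, 25.4% and 25.8%.

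**Figure D1:**
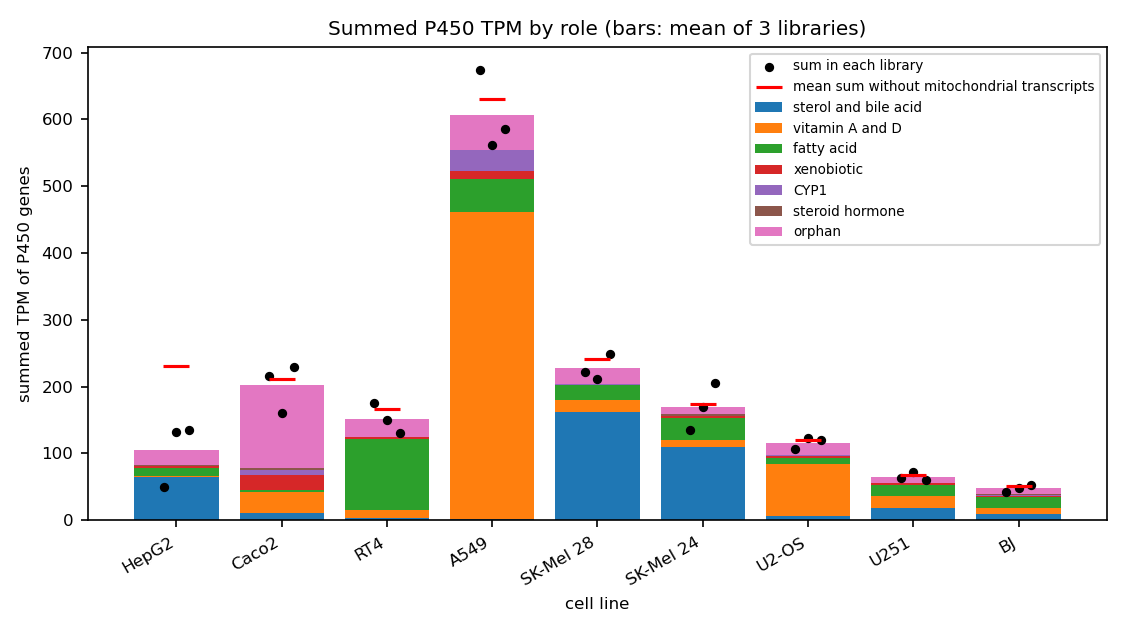
Summed TPM of the P450 genes (vertical axis) in each cell line, stacked by role (bars, mean of 3 libraries), with the sum in each library (black points) and the mean sum after rescaling without mitochondrial transcripts (red dashes). A549 stands highest at 607.1 TPM, of which the vitamin A and D group gives 459.7, and HepG2 is the line that rescaling moves most, to 230.5.

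By role, vitamin A and D members held 459.7 ± 62.82 TPM in A549 and 78.1 ± 9.14 in U2-OS. Sterol and bile acid members held 161.3 ± 26.28 TPM in SK-Mel 28, 110.0 ± 33.35 in SK-Mel 24 and 63.97 ± 29.45 in HepG2. Rescaled without mitochondrial transcripts, these sums averaged 171.6 TPM in SK-Mel 28, 141.1 in HepG2 and 112.9 in SK-Mel 24, so that HepG2 and SK-Mel 24 changed places. Fatty acid members held 106.1 ± 15.99 TPM in RT4. The members whose natural substrates are less settled, called orphan here, held 123.2 ± 18.72 TPM in Caco2. In HepG2, a line derived from the organ best known for drug oxidation, the 13 xenobiotic members summed to 3.39, 2.76 and 3.06 TPM, against 24.33, 16.48 and 27.18 TPM in Caco2. Rescaled, the xenobiotic sums were 8.72 ± 6.4 TPM in HepG2 and 23.66 ± 5.5 TPM in Caco2.

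**Figure D2:**
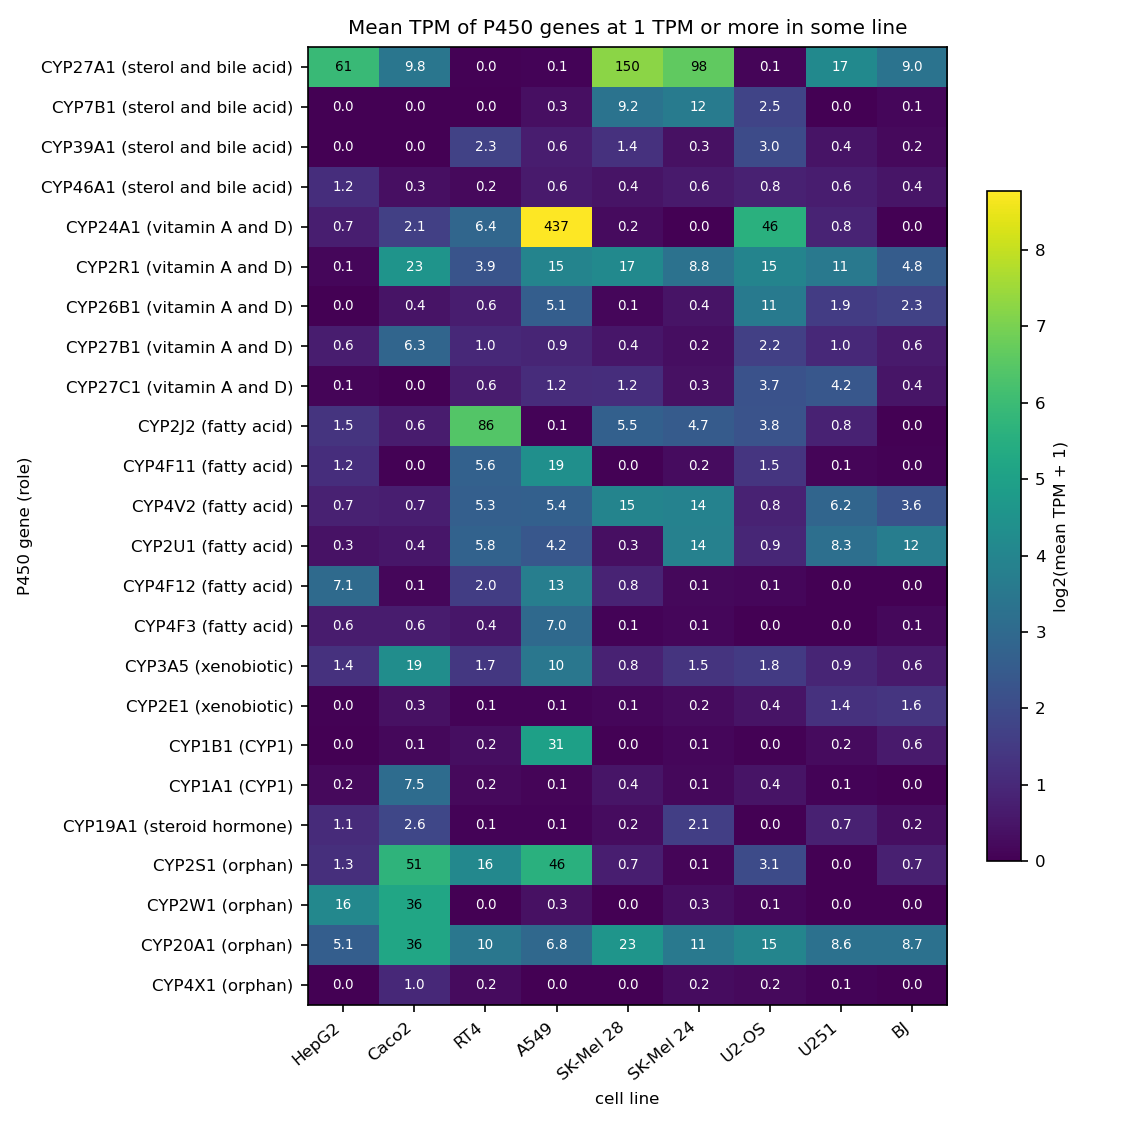
Mean TPM over 3 libraries (numbers; colour gives log2 of mean TPM + 1) of the 24 P450 genes at 1 TPM or more in at least 1 line, with genes grouped by role in rows and cell lines in columns. CYP20A1 is at 1 TPM or more in 9 of 9 lines, while CYP1B1, CYP1A1, CYP4F3, CYP46A1 and CYP4X1 are so in 1 line each.

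Among the sterol and bile acid enzymes, CYP27A1 had by far the most transcript. It encodes the mitochondrial hydroxylase that oxidises the cholesterol side chain. CYP27A1 (chr2:218781749-218815293) had 137.9, 132.1 and 180.8 TPM in SK-Mel 28, 69.58, 85.55 and 137.6 TPM in SK-Mel 24, and 27.45, 73.41 and 83.24 TPM in HepG2. All 9 of these libraries lay above every library of the other lines, and neighbouring lines among the 3 overlapped. U251 followed with 16.76 ± 2.17 TPM, Caco2 with 9.81 ± 1.53 and BJ with 9.04 ± 0.28, while U2-OS, A549 and RT4 had 0.08 TPM or less. The order at the top depended on the scaling. Rescaled TPM averaged 159.8 in SK-Mel 28, 133.6 in HepG2 and 100.1 in SK-Mel 24, whereas HepG2 was highest in the count fit with TMM factors, 0.88 ± 0.26 (SE) log2 above SK-Mel 28, and SK-Mel 28 was highest with library totals alone. A second coding transcript had 26.11 TPM in SK-Mel 28 and 25.11 TPM in SK-Mel 24, while the main coding transcript held 97.7% of the gene's TPM in HepG2.

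CYP7B1, an oxysterol hydroxylase that acts after CYP27A1 in the alternative bile acid pathway, was also highest in the melanoma lines. SK-Mel 28 had 9.14, 10.04 and 8.42 TPM, and SK-Mel 24 had 10.78, 15.39 and 8.42 TPM. These lines overlapped, and U2-OS came next with 2.49 ± 1.12 TPM. RT4, Caco2 and U251 had no count of CYP7B1 in any library. CYP39A1, another oxysterol hydroxylase, had 2.99 ± 0.6 TPM in U2-OS, 2.33 ± 0.58 in RT4 and 1.4 ± 0.31 in SK-Mel 28, and no count in Caco2.

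The bile acid enzymes best known from liver were low in HepG2. CYP7A1, the rate-limiting enzyme of the classical pathway, had 0.18, 0.81 and 0.78 TPM in HepG2 from 22, 56 and 57 counts, against 0, 0 and 1 counts in Caco2. CYP8B1, needed to form cholic acid, had 0.28, 1.06 and 0.93 TPM in HepG2, 0.23, 0.31 and 0.41 TPM in A549 and 0.13, 0.08 and 0.15 TPM in Caco2. HepG2 library 1 lay within the A549 range for CYP8B1 before rescaling. Rescaled without mitochondrial transcripts, CYP8B1 averaged 1.59 ± 0.24 TPM in HepG2 and 0.33 ± 0.1 TPM in A549. In the count fit HepG2 lay 3.125 ± 0.524 (SE) log2 above A549. CYP46A1, a cholesterol hydroxylase best known from neurons, had 2.52, 0.59 and 0.58 TPM in HepG2 from 699, 95 and 99 counts. Library 1 thus set its mean, and the whole signal was assigned to transcript 204, annotated as subject to nonsense-mediated decay.

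Of the vitamin D genes, CYP24A1, which inactivates the vitamin, gave the highest value of the family. CYP24A1 (chr20:54153449-54173973) had 501.7, 388.0 and 421.9 TPM in A549, 34.56, 50.5 and 53.0 TPM in U2-OS and 7.59, 6.04 and 5.55 TPM in RT4. None of these lines overlapped. BJ had no count in 3 libraries and SK-Mel 24 had 1. Caco2 varied between libraries, with 0.43, 4.4 and 1.59 TPM.

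CYP2R1, a vitamin D hydroxylase of the activating pathway, was instead spread over 8 lines at 1 TPM or more. Caco2 had 32.12, 12.22 and 23.34 TPM, SK-Mel 28 had 22.22, 15.98 and 12.37 TPM, U2-OS had 14.04, 14.22 and 15.78 TPM and A549 had 16.77, 13.61 and 13.18 TPM. These lines overlapped, and no neighbours passed the test from Caco2 down to BJ (adjusted p between 0.0889 and 0.765 in the order of TPM). HepG2 stood apart with 0.0, 0.33 and 0.02 TPM. CYP27B1, which makes the active hormone, had 5.7, 5.78 and 7.42 TPM in Caco2, and no library of another line exceeded 2.97 TPM. A retained-intron transcript held 66.8% of the Caco2 value. On coding transcripts Caco2 had 1.06 ± 0.31 TPM and U2-OS 1.22 ± 0.74, so Caco2 did not lead there. CYP27B1 overlaps METTL1, with which it shared 2.31% of its 31-base words.

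Of the retinoid enzymes, CYP26B1, which breaks down retinoic acid, had 13.42, 12.14 and 8.1 TPM in U2-OS and 6.34, 4.15 and 4.85 TPM in A549, without overlap. BJ had 2.29 ± 0.29 TPM, U251 1.93 ± 0.38, and HepG2 no count. CYP27C1, a retinoid desaturase described in skin, had 4.21 ± 0.65 TPM in U251 and 3.66 ± 0.74 in U2-OS. CYP26A1 and CYP26C1, the other retinoic acid hydroxylases, stayed at or under means of 0.82 TPM (A549) and 0.07 TPM (BJ).

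Among the fatty acid enzymes, CYP2J2, an arachidonic acid epoxygenase known from heart, was a transcript of RT4. CYP2J2 (chr1:59893308-59926790) had 104.9, 81.17 and 71.99 TPM in RT4, and the highest library of any other line, in SK-Mel 28, had 6.46 TPM. SK-Mel 28 averaged 5.52 ± 0.86 TPM and SK-Mel 24 4.67 ± 0.65. Its main coding transcript held 90.6% of the RT4 value.

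The CYP4F enzymes, which hydroxylate fatty acids and leukotrienes near the end of the chain, differed in their leading line. CYP4F11 had 19.65, 19.29 and 19.42 TPM in A549 and 5.16, 6.27 and 5.24 TPM in RT4, without overlap. CYP4F12 had 9.29, 12.91 and 15.73 TPM in A549 and 2.47, 10.38 and 8.43 TPM in HepG2, which overlapped. On rescaled TPM, HepG2 (14.75) and A549 (13.15) changed places, and in the count fit HepG2 lay 1.39 ± 0.34 (SE) log2 above A549. CYP4F3, a leukotriene hydroxylase of neutrophils, had 6.57, 7.55 and 6.94 TPM in A549 and 0.59 TPM or less in every other line mean. Rescaled, CYP4F3 averaged 7.29 ± 0.53 TPM in A549 and 1.5 ± 0.67 TPM in HepG2. In the count fit A549 lay only 0.867 ± 0.435 (SE) log2 above HepG2. CYP4F3 shared 13.6% of its 31-base words with CYP4F2, so the division of reads between these genes is uncertain. CYP4F22 reached a mean of 0.74 TPM in U2-OS, CYP4F8 0.27 in RT4 and CYP4F2 0.24 in A549. Rescaled HepG2 means of CYP4F8 (0.88 ± 1.23) and CYP4F2 (0.32 ± 0.28) lay above those of RT4 (0.29 ± 0.08) and A549 (0.25 ± 0.19). HepG2 libraries 1, 2 and 3 had 61, 7 and 8 counts of CYP4F8 and 0, 14 and 10 counts of CYP4F2.

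CYP4V2, a fatty acid hydroxylase whose loss causes a retinal dystrophy, had 14.79, 16.46 and 12.64 TPM in SK-Mel 28 and 12.74, 16.71 and 12.46 TPM in SK-Mel 24. The melanoma lines overlapped, and U251 followed with 6.2 ± 1.15 TPM. CYP2U1, a hydroxylase of long-chain fatty acids, had 0.35, 0.25 and 0.23 TPM in SK-Mel 28, against 10.87, 14.86 and 15.12 TPM in SK-Mel 24. BJ lay within the SK-Mel 24 range or just below it, with 10.25, 11.69 and 14.51 TPM. CYP4A22 and CYP4A11, fatty acid hydroxylases of liver and kidney that shared 54.1% and 51.9% of their words with each other, reached 0.14 and 0.09 TPM in Caco2, their highest line before rescaling. Rescaled, CYP4A11 averaged 0.19 ± 0.33 TPM in HepG2, from 10, 0 and 0 counts, and 0.09 ± 0.08 TPM in Caco2.

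**Figure D3:**
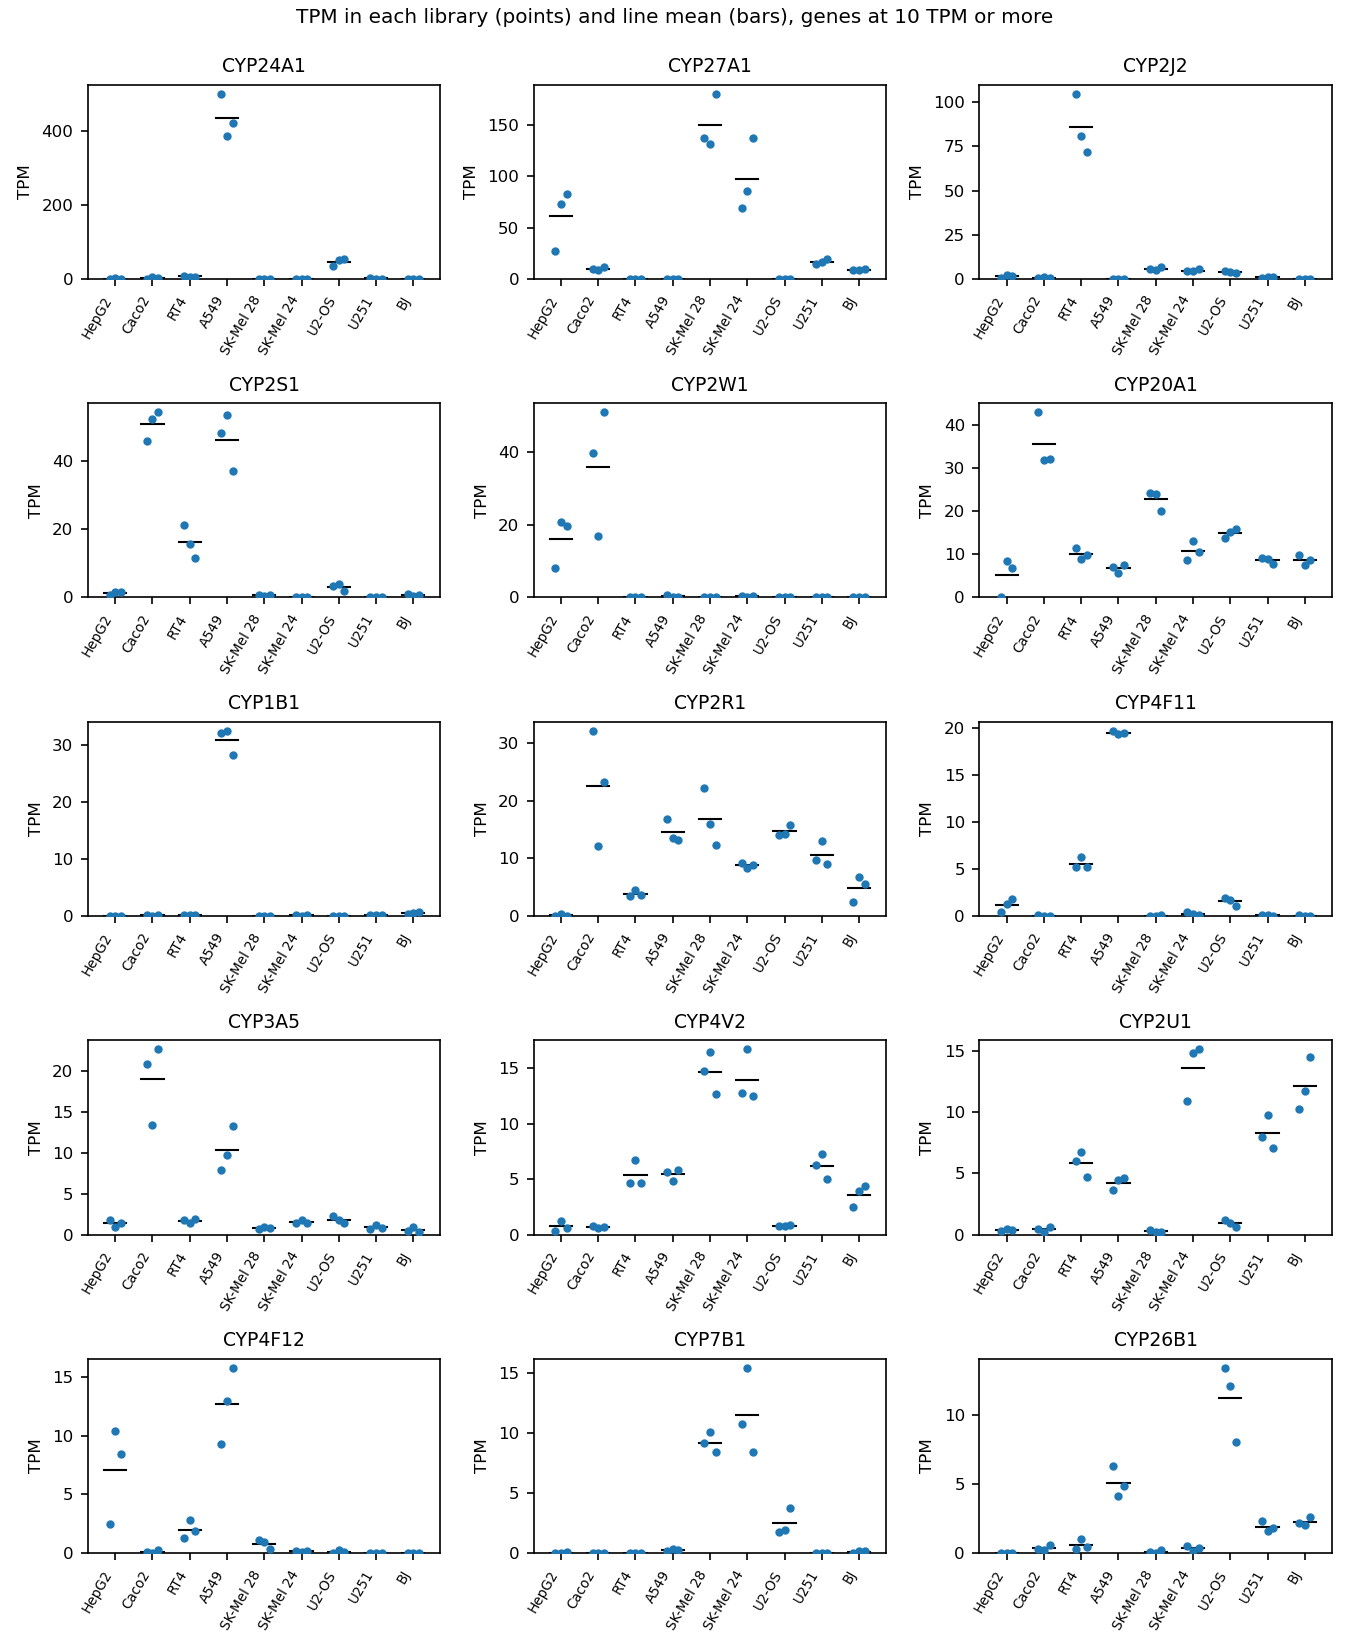
TPM in each of 3 libraries (points) and the line mean (horizontal bars) for the 15 P450 genes at 10 TPM or more in some line, 1 panel per gene, each with its own linear axis from 0. CYP24A1, CYP2J2 and CYP1B1 stand up in A549, RT4 and A549, while CYP2R1 and CYP20A1 spread over most lines.

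The drug-metabolising members were mostly near 0. CYP3A5, an intestinal and liver form of the CYP3A group, was the exception, with 20.84, 13.43 and 22.61 TPM in Caco2 and 7.92, 9.7 and 13.2 TPM in A549. These lines did not overlap, by a narrow margin. HepG2 had 1.83, 0.94 and 1.42 TPM of CYP3A5, from 167, 40 and 64 counts in libraries 1, 2 and 3. The HepG2 mean after rescaling, 4.26 ± 3.86 TPM, was next after Caco2 and A549, but its SD was nearly as large as the mean. In the count fit HepG2 and A549 differed by -0.03 log2 (adjusted p = 0.981). Coding transcripts held 69.7% of the gene's TPM in Caco2 and 0.297% in U2-OS, where 1 retained-intron transcript held 78.5%. CYP2E1, the ethanol-oxidising enzyme of liver, had 1.57 ± 0.32 TPM in BJ, 1.37 ± 0.65 in U251 and 0.03 ± 0.02 in HepG2, and shared 18.3% of its words with SYCE1.

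CYP3A4, the main drug-oxidising enzyme of adult liver and gut, had 0.06, 0.1 and 0.08 TPM in HepG2 and 0.0, 0.03 and 0.0 TPM in Caco2, and was highest in RT4 with 0.11, 0.44 and 0.27 TPM. CYP3A7, the fetal liver form, had 1.07, 0.73 and 0.85 TPM in HepG2, with 38.9% of its words shared with the readthrough gene CYP3A7-CYP3A51P. CYP2B6 was highest in Caco2 (0.97 ± 0.61 TPM). CYP2D6 was highest in U2-OS (0.55 ± 0.21 TPM) and shared 42.6% of its words with CYP2D7. CYP2F1, CYP2C19, CYP2C18, CYP2A6, CYP2C8 and CYP2A13 reached means of 0.43, 0.38, 0.31, 0.14, 0.1 and 0.01 TPM in their highest lines.

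In the CYP1 group, which oxidises polycyclic aromatic compounds and is induced through the aryl hydrocarbon receptor (AHR), CYP1B1 and CYP1A1 were high in different lines. CYP1B1 (chr2:38066973-38109902) had 32.07, 32.5 and 28.2 TPM in A549, and BJ, the next line, had 0.39, 0.59 and 0.72 TPM. The ratio of the mean in A549 to that in BJ was 54.6. CYP1A1 (chr15:74719542-74725610) had 4.06, 7.56 and 10.93 TPM in Caco2 and 0.41 TPM or less in every other line mean, with 0.08 ± 0.03 TPM in A549. CYP1A2, a liver form, reached 0.39 ± 0.11 TPM in U2-OS and had 0.35, 0.25 and 0.16 TPM in HepG2, from 39, 16 and 11 counts. Rescaled, the order changed, with 0.8 ± 0.77 TPM in HepG2 and 0.4 ± 0.11 TPM in U2-OS. In the count fit HepG2 lay 2.037 ± 0.651 (SE) log2 above U2-OS.

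The promoter of CYP1A1 is a textbook target of AHR and is shown beside the Caco2 result for that reason. The window is chr15:74725479-74725778 on the minus strand (RefSeq, GRCh38.p14), from 250 bases before to 50 bases after the start of the gene. Capitals mark GCGTG, the core of the AHR response element, and TATAAA, both searched on either strand.
CYP1A1: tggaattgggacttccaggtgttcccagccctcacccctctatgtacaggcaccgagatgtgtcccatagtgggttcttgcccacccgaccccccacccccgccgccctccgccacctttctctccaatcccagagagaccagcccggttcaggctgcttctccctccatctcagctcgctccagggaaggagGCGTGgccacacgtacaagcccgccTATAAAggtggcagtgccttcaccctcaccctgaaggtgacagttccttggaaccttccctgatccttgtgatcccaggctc
The window held 1 match to each motif, and the matches do not overlap. GCGTG occurred in 36.5% and TATAAA in 11.5% of the 35116 windows in the table. Of the 50 windows of the 37 members with an entry, 24.0% held GCGTG and 34.0% held TATAAA. AHR itself had 57.98 ± 13.5 TPM in SK-Mel 24, 52.88 ± 9.16 in A549, 51.46 ± 17.18 in RT4 and 11.26 ± 5.76 in Caco2. On coding transcripts it had 27.39 ± 7.49 TPM in RT4, 17.34 ± 8.29 in A549, 14.29 ± 3.99 in SK-Mel 24 and 6.57 ± 2.89 in Caco2. RT4 averaged 0.18 TPM of CYP1A1 and 0.24 TPM of CYP1B1. The relation of AHR to these genes was not tested. Of 6 other genes known to respond to AHR, 6 differed over the lines and 3 were enriched in a line by the rule given below, against 98.3% and 14.7% of all genes. These were ALDH3A1, an aldehyde dehydrogenase, in A549 (3028.0 ± 422.5 TPM), UGT1A6, a glucuronosyltransferase, in RT4 (244.2 ± 50.73), and GSTA2, a glutathione transferase, in Caco2 (37.27 ± 11.95). NQO1, a quinone reductase, had 4307.0 ± 516.7 TPM in A549.

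The 6 steroid hormone members were low. CYP19A1, the aromatase that makes estrogens, had 3.02, 1.07 and 3.8 TPM in Caco2, 0.98, 4.66 and 0.66 TPM in SK-Mel 24 and 0.16, 2.15 and 0.95 TPM in HepG2. The 3 lines overlapped, and library 2 set the SK-Mel 24 mean. CYP11A1, which starts steroid synthesis from cholesterol, was highest in BJ with 0.82 ± 0.13 TPM. CYP17A1, CYP21A2 and CYP11B2 reached means of 0.4, 0.05 and 0.01 TPM, and CYP11B1 had no count in 27 libraries.

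Orphan members supplied the leading P450 transcripts of Caco2. CYP2S1 (chr19:41193049-41207539), known from epithelia, had 45.76, 52.3 and 54.22 TPM in Caco2 and 48.08, 53.59 and 37.05 TPM in A549, which overlapped and did not pass the test (log2 difference 0.52 ± 0.30 (SE), adjusted p = 0.147). CYP2W1, known from colon tumours, had 39.54, 16.79 and 50.79 TPM in Caco2 and 8.09, 20.56 and 19.52 TPM in HepG2, and 0.3 TPM or less in every other line mean. Rescaled, these lines averaged 37.18 and 35.89 TPM. CYP20A1 had 42.87, 31.86 and 32.06 TPM in Caco2, 24.08, 23.99 and 20.01 TPM in SK-Mel 28, and 0.04, 8.52 and 6.8 TPM in HepG2, where library 1 stood apart. Of the 36 pairs of lines, 11 differed in CYP20A1 at an adjusted p under 0.05, the fewest among the 15 members, against 33 for CYP2S1 and CYP2U1, the most. These counts do not rank how much members vary, because the SE differed between genes. It was 0.493 to 0.523 log2 in CYP20A1, with or without HepG2 in the pair, and 0.221 to 0.29 in CYP2U1. For CYP20A1, U2-OS (14.95 ± 1.02 TPM) and U251 (8.58 ± 0.73) did not pass the test (adjusted p = 0.39). The part of HepG2 library 1 in this SE was not tested. CYP4X1 had 1.44, 1.04 and 0.61 TPM in Caco2, and CYP3A43, CYP4Z1 and CYP2A7 reached means of 0.24, 0.19 and 0.18 TPM.

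Members also differed in how much of their TPM lay on transcripts annotated as protein coding. In its highest line, 12 of the 24 members had over 80% there, 7 had 50% to 80% and 5 had less. The 5 were CYP20A1 (24.2%), CYP2R1 (19.0%), CYP27B1 (16.8%), CYP19A1 (8.57%) and CYP46A1 (0.0%). For CYP20A1 in Caco2, the processed transcript 207 took 22.17 ± 7.73 TPM and the main coding transcript took 6.94. CYP20A1 was 54.0% coding in A549 and 0.0% in HepG2. The coding share of CYP2R1 was low in each of its 8 lines, from 12.1% in RT4 to 25.5% in SK-Mel 28. CYP24A1 was 64.3% coding in A549, where the processed transcript 204 took 139.8 TPM, and 38.3% in U2-OS. CYP19A1 was 8.57% coding in Caco2 and 82.2% in SK-Mel 24. Reads of overlapping transcripts are divided by estimation, and the error of that division was not tested.

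**Figure D4:**
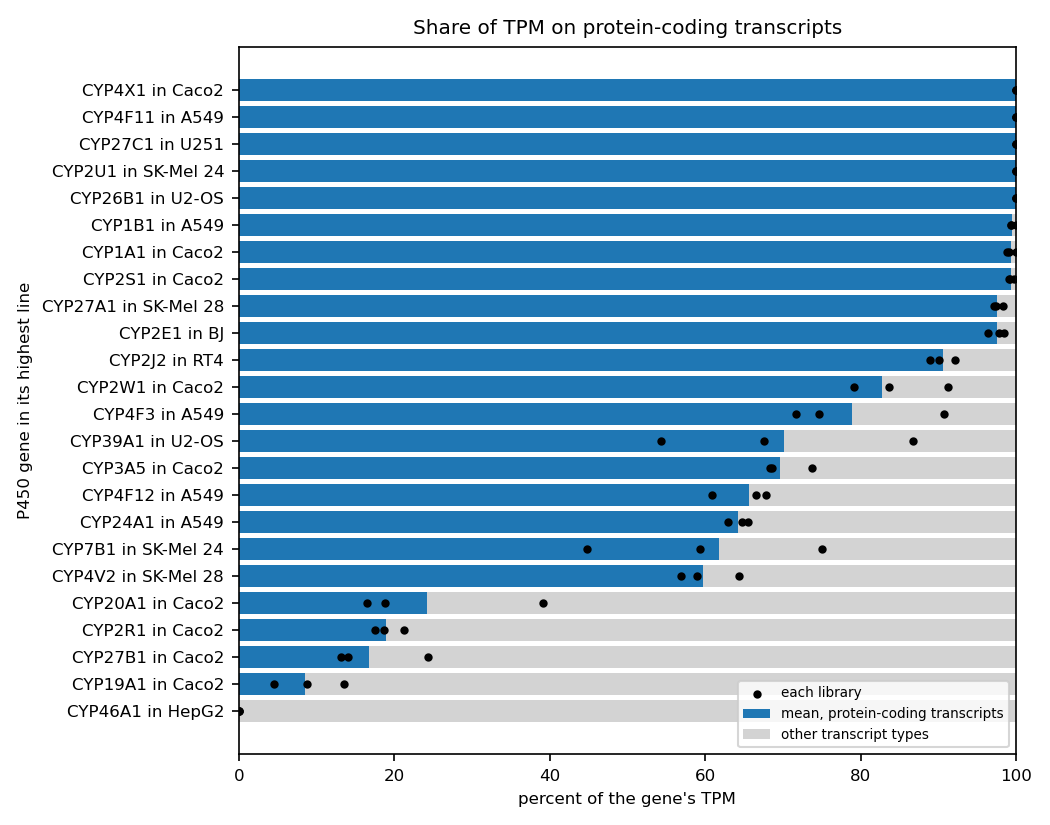
Percent of each gene's TPM on transcripts annotated as protein coding (blue bars, mean over libraries; black points, each of 3 libraries) and on other transcript types (grey) in the line where the gene is highest, for 24 P450 genes. CYP20A1, CYP2R1, CYP27B1, CYP19A1 and CYP46A1 lie under 50%.

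Differences between lines were tested on gene counts with edgeR's quasi-likelihood test, adjusted by Benjamini and Hochberg over 17220 genes. The low-count filter kept 34 of the 53 members. The 19 left out were CYP11B1, CYP11B2, CYP17A1, CYP21A2, CYP26C1, CYP2A13, CYP2A6, CYP2A7, CYP2C18, CYP2C19, CYP2C8, CYP2F1, CYP3A4, CYP3A43, CYP4A11, CYP4A22, CYP4F2, CYP4F8 and CYP4Z1. Each of the 34 differed over the 9 lines at an adjusted p under 0.05, as did 98.3% of all genes fitted. A member kept because it is high in 1 line had to differ, so counts over the 34 are descriptions.

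A gene was called enriched in a line where it passed one-sided tests against each of the other 8 lines with a fitted level 4-fold or more over that of the second line. This held for 10 of the 34 members (29.4%), against 14.7% of all genes. CYP1B1 lay 5.64 ± 0.33 (SE) log2 above BJ in A549 (adjusted p = 5.17e-12) and CYP24A1 4.19 ± 0.44 above U2-OS in A549 (adjusted p = 4.55e-08). CYP2J2 lay 4.27 ± 0.38 above SK-Mel 28 in RT4 (adjusted p = 1.66e-09). CYP1A1 lay 3.59 ± 0.53 above HepG2 in Caco2 (adjusted p = 3.13e-06) and CYP4X1 2.31 ± 0.72 above RT4 in Caco2 (adjusted p = 0.00886). HepG2 had 5 of the 34 (14.7%), against 3.87% of all genes: CYP7A1, CYP8B1, CYP46A1, CYP3A7 and CYP1A2. Of these only CYP46A1 had a mean of 1 TPM before rescaling. Rescaled HepG2 means were 4.67 ± 6.34 TPM for CYP46A1, 2.6 ± 2.14 for CYP3A7 and 1.59 ± 0.24 for CYP8B1. Those of CYP7A1 and CYP1A2 were 1.2 ± 0.29 and 0.8 ± 0.77 TPM. Without HepG2 library 1, CYP46A1 and CYP1A2 were not called, and with library totals alone CYP46A1, CYP3A7 and CYP1A2 were not.

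HepG2 and Caco2 were compared directly, as the liver and colon lines. Of the 34 members, 16 were higher in HepG2 (47.1%, against 22.6% of all genes) and 10 lower (29.4%, against 23.6%), at an adjusted p under 0.05 and a change of at least 2-fold. The median difference was 1.43 log2 over the 34 and -0.03 log2 over all genes. A mean of 1 TPM in either line was reached by 6 of the 16 (CYP4F12, CYP4F11, CYP46A1, CYP27A1, CYP2J2 and CYP19A1) and by 7 of the 10 (CYP2R1, CYP1A1, CYP2S1, CYP20A1, CYP27B1, CYP3A5 and CYP4X1). The other 10 higher members were CYP1A2, CYP27C1, CYP2D6, CYP2U1, CYP3A7, CYP4F3, CYP4V2, CYP7A1, CYP7B1 and CYP8B1, of which CYP7B1 rested on 3 counts in 1 HepG2 library. Among these, rescaled HepG2 means passed 1 TPM for CYP3A7 (2.6), CYP4V2 (1.62), CYP8B1 (1.59), CYP4F3 (1.5) and CYP7A1 (1.2). For CYP19A1 the call, made on counts with TMM factors, runs against TPM, which averaged 1.09 in HepG2 and 2.63 in Caco2 (2.04 and 2.74 rescaled), and with library totals alone it was 0.80 log2 (adjusted p = 0.32). CYP2U1 likewise had 0.34 TPM in HepG2 and 0.44 in Caco2, and 0.85 and 0.45 rescaled. The other 3 lower members, CYP1B1, CYP26A1 and CYP26B1, had no count in HepG2.

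CYP27A1 was 4.603 ± 0.303 (SE) log2 higher in HepG2 than in Caco2 (adjusted p = 5.15e-12), CYP4F12 8.17 ± 0.52 higher (adjusted p = 3.63e-11) and CYP4F11 7.08 ± 0.52 higher (adjusted p = 3.64e-11). CYP2S1 had 1.27 ± 0.54 TPM in HepG2 and 50.76 ± 4.43 TPM in Caco2 (log2 difference -3.35 ± 0.34, adjusted p = 8.82e-09). CYP2R1 had 0.12 ± 0.18 TPM in HepG2 and 22.56 ± 9.97 TPM in Caco2 (adjusted p = 2.09e-10). CYP4X1 had no count in HepG2 and was at least 17.6-fold lower there than in Caco2, taking 3 counts over the HepG2 libraries as the floor. CYP2W1 (0.98 ± 0.34 log2, adjusted p = 0.0169) missed the 2-fold bound. TMM factors moved the median of all genes in this contrast by 1.34 log2. With library totals alone that median was -1.37 log2, 11 members were higher and 12 lower, and members that turned from a positive to a negative difference included CYP24A1 (-1.12, then called lower, adjusted p = 0.0463), CYP2E1 (-0.80), CYP2W1 (-0.39) and CYP2U1 (-0.30).

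**Figure D5:**
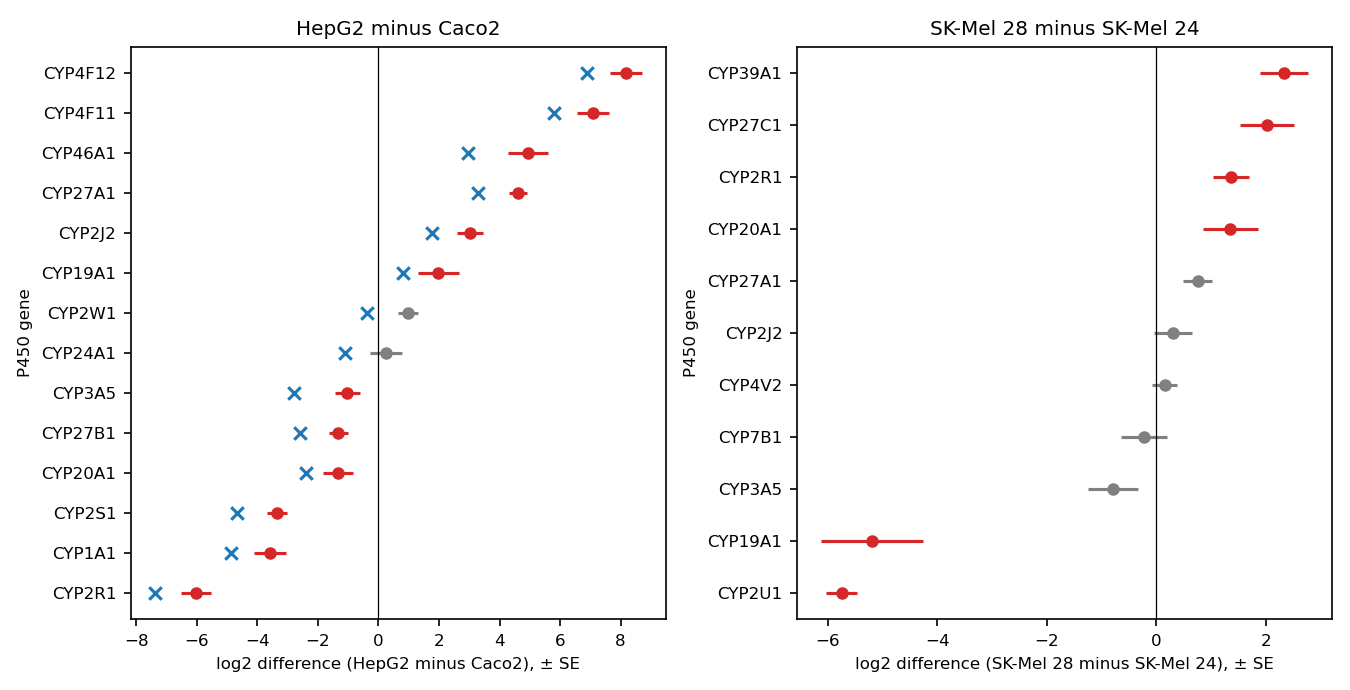
Log2 differences ± SE, HepG2 minus Caco2 (left) and SK-Mel 28 minus SK-Mel 24 (right), for P450 genes at 1 TPM or more in either line with counts in both; red points were called, grey points were not, and blue crosses give the left contrast with library totals alone. CYP4F12, CYP4F11 and CYP27A1 lie on the HepG2 side and CYP2R1, CYP1A1 and CYP2S1 on the Caco2 side under both scalings.

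The melanoma lines are the only lines with the same tissue label. In SK-Mel 28 against SK-Mel 24, 6 of the 34 members were higher (17.6%, against 15.5% of all genes) and 8 lower (23.5%, against 16.5%). The higher members at 1 TPM or more were CYP39A1 (2.33 ± 0.44 (SE) log2, adjusted p = 0.000119), CYP27C1, CYP2R1 (1.37 ± 0.33, adjusted p = 0.00123) and CYP20A1 (1.35 ± 0.51, adjusted p = 0.0309). The lower ones were CYP2U1 (-5.74 ± 0.29, adjusted p = 5.93e-14) and CYP19A1 (-5.18 ± 0.93, adjusted p = 7.21e-05). Under 1 TPM in both lines, CYP1A1 and CYP2S1 were higher, and CYP1B1, CYP26A1, CYP26B1, CYP2W1, CYP4F11 and CYP4X1 lower. CYP27A1 was 0.76 ± 0.26 log2 higher in SK-Mel 28 (adjusted p = 0.0192), short of 2-fold, and 1.13 log2 higher without SK-Mel 24 library 3. CYP4V2 (0.15 ± 0.23, adjusted p = 0.631) and CYP7B1 (-0.23 ± 0.42, adjusted p = 0.705) did not pass the test. Of 6 melanocyte markers, SK-Mel 28 had 6 at 1 TPM or more (sums of 9972.2 to 15045.5 TPM) and SK-Mel 24 had 4 (234.9 to 297.6 TPM), and the part of this in the P450 differences was not tested.

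Of the 8 listed redox partners, 8 differed over the lines and 0 were enriched in 1, against 98.3% and 14.7% of all genes. The highest by TPM were CYB5R3 in BJ (550.0 ± 18.68 TPM), CYB5B in A549 (427.6 ± 112.4), CYB5A in RT4 (411.7 ± 23.76) and PGRMC1 in U251 (162.4 ± 35.61). These carry or assist electron transfer through cytochrome b5 or bind P450 enzymes. In the count fit CYB5B was highest in HepG2, 0.533 log2 above A549, and PGRMC1 in BJ, 0.208 log2 above U251. POR had 157.0 ± 103.4 TPM in HepG2, of which 8.79 lay on coding transcripts, and 66.38 ± 6.86 TPM in Caco2, of which 51.78 did. On coding transcripts POR was thus lower in HepG2. FDX1, the ferredoxin of the mitochondrial members such as CYP27A1 and CYP24A1, had 2.6 ± 1.45 TPM in HepG2 and 20.59 ± 3.66 TPM in Caco2. In the count fit of that contrast with TMM factors, 4 partners were called higher in HepG2 (POR, CYB5A, CYB5R3 and FDXR) and 1 lower (FDX1). In TPM, CYB5R3 averaged 33.8 in HepG2 and 71.74 in Caco2 (72.95 and 74.98 rescaled), against its call, and CYB5A 70.55 in HepG2 and 70.11 in Caco2 (154.8 and 73.41 rescaled).

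Of 19 regulators, 19 differed over the lines and 5 were enriched in 1, against the same 98.3% and 14.7% of all genes. These were NR1I2 (the pregnane X receptor that induces CYP3A genes, 2.03 ± 0.89 TPM), NR5A1, NR0B2 and NR1H4 (the bile acid receptor) in HepG2, and NR5A2 in A549. The highest levels by TPM were those of NR0B2 in HepG2 (96.93 ± 64.16 TPM), CEBPA in Caco2 (62.97 ± 27.16), AHR in SK-Mel 24 and TIPARP in SK-Mel 24 (55.92 ± 6.85). In the count fit CEBPA was instead called higher in HepG2 than in Caco2, by 1.68 log2 (adjusted p = 0.000396). That fit put AHR highest in RT4, 0.565 log2 above A549. HepG2 against Caco2 gave 9 higher and 4 lower, and SK-Mel 28 against SK-Mel 24 gave 2 higher and 7 lower. Over all genes the shares were 22.6% higher and 23.6% lower in HepG2, and 15.5% higher and 16.5% lower in SK-Mel 28. The vitamin D receptor VDR, which induces CYP24A1, had 1.69 ± 0.73 TPM in A549, where CYP24A1 was highest. It had 10.15 ± 1.45 TPM in SK-Mel 24, where CYP24A1 had 1 count. In the count fit VDR was highest in BJ, 0.365 log2 above U251. The relation of VDR to CYP24A1 over the lines was not tested.

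Among genes of the same pathways, read against the 14.7% of all genes that were enriched in a line, 4 of 8 retinoid genes were, including ALDH1A1, which makes retinoic acid, in A549 (9389.8 ± 1517.8 TPM). ALDH1A3 and DHRS3 had 596.5 ± 49.26 and 372.3 ± 11.55 TPM in SK-Mel 24, and CRABP2, a retinoic acid carrier, 222.5 ± 34.71 TPM in BJ. Of 8 bile acid genes 3 were enriched, HSD3B7 and AKR1D1 in HepG2 and the bile salt pump ABCB11 in RT4 (0.42 ± 0.27 TPM). By TPM, SCP2 was highest in RT4 (216.1 ± 29.38 TPM), AMACR in Caco2 (70.76 ± 29.97) and ACOX2 in HepG2 (28.63 ± 19.91). SLC27A5 was highest by TPM in RT4 (23.62 ± 3.6), but in the count fit with TMM factors HepG2 lay 1.138 log2 above RT4. Of 8 steroid genes 6 were enriched. Among them were SULT2A1, a sulfotransferase, in HepG2 (78.42 ± 48.59 TPM), HSD3B1 in Caco2 (24.97 ± 9.64) and HSD17B3 in U2-OS (17.8 ± 3.37). HSD17B1 reached 16.63 ± 4.72 TPM in RT4, while the count fit put HepG2 0.362 log2 above RT4. Of 7 eicosanoid genes 3 were enriched, TBXAS1 in SK-Mel 24, PTGS1 in BJ and ALOX5 in RT4. EPHX1 and EPHX2, the epoxide hydrolases, had 519.0 ± 109.5 TPM in A549 and 64.62 ± 20.68 TPM in SK-Mel 24, and PTGS1 107.8 ± 41.68 TPM in BJ. The count fit instead put EPHX2 highest in HepG2, 0.232 log2 above Caco2. TBXAS1, thromboxane synthase, is a P450 enzyme under another symbol and had 0.61 ± 0.11 TPM in SK-Mel 28 and 154.6 ± 17.05 TPM in SK-Mel 24. In HepG2 against Caco2, where 22.6% of all genes were higher and 23.6% lower, 3 retinoid genes were higher and 3 lower, 4 bile acid genes higher and 1 lower, 3 steroid genes higher and 4 lower, 2 eicosanoid genes higher and 1 lower, and 1 AHR-responsive gene higher and 3 lower. In SK-Mel 28 against SK-Mel 24, where 15.5% of all genes were higher and 16.5% lower, the counts were 2 higher and 4 lower for retinoid genes, 2 and 1 for bile acid genes, 3 and 0 for steroid genes, 2 and 3 for eicosanoid genes, and 0 and 2 for AHR-responsive genes.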

How the data were processed

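RNA from 9 cell lines, 3 libraries each, was made into stranded, poly-A selected libraries, per the labels' protocols. Tools named in the submitters' processing notes were CASAVA 1.8 and kallisto 0.43.1, with GRCh 38 as the build; which annotation release the index held is not given in the sources used here. Per transcript, the authors deposited an estimated count and a TPM value. Transcripts were matched by identifier to GENCODE 29; 16354 of 176241 (9.28%) did not match and were left out. Both measures were summed to genes, and summed estimated counts were rounded. The members, roles and gene lists were chosen with earlier results of these data known. The values of 1 member are not reported here. Members at 10 TPM or more are given per library in their highest lines, those at 1 to 10 TPM by line, and those under 1 TPM by range; of each partner list, the enriched genes and the 4 with the highest mean TPM are named.

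Counts were fitted with edgeR 4.0.16 (R 4.3.3; quasi-likelihood, robust, TMM factors, filterByExpr, 1 coefficient per line, 27 libraries), keeping 17220 genes with a biological coefficient of variation of 24.2%, and adjusted by Benjamini-Hochberg. Alternatives used DESeq2 1.42.0, other scalings, filters and transcript sets, and leaving out each library. Scripts were tested on simulated data. Pairs of libraries of a line differed by more than sampling noise (chi-square per degree of freedom 17.0 to 711 over 27 pairs). Replicate numbers follow accession order and pair nothing. Total counts of 15597117 to 32583547 set the precision, and floors of 3 counts cover counting error only. Shared 31-base words were counted over the GENCODE 29 transcripts that matched a transcript of the deposited data. Proteomics named in the series design was not analysed here.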

Additional observations from a re-analysis of the deposited data

Results flagged for a closer look

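P450 loci that the choice of members left out, 47 in all, carried signal in some lines: 23 had more than 3 counts over the libraries and 18 had none. The levels are line means of summed TPM in the highest line. CYP4F32P, an unprocessed pseudogene, had 48.33 ± 1.54 TPM (SD, n = 3) in U2-OS and 795 counts over the 27 libraries. CYP4F29P, a transcribed pseudogene, had 14.19 ± 4.51 TPM in Caco2. CYP4F62P had 3.18 TPM in U2-OS, CYP2T1P 3.07 TPM in Caco2, CYP4F25P 2.36 TPM in SK-Mel 24, CYP2B7P 1.39 TPM in Caco2 and CYP2F2P 1.11 TPM in Caco2. CYP3A52P averaged 1.26 ± 2.18 TPM in U251, where its SD exceeded its mean. Apart from CYP3A52P, which rests on 1 count, each lies above the 3 counts taken as the floor. CYP2B6 and CYP2F1 shared 18.9% and 14.5% of their 31-base words with CYP2B7P and CYP2F2P.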

How the results depend on the processing

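Library totals without TMM factors, the restriction of enriched genes to 1 TPM or more, and leaving out libraries for TPM levels were added after seeing the data. Of the counts of members differing, enriched in any line, higher, lower or at 1 TPM, 4 moved by more than 1.5 times under an alternative: with only the compared lines in the fit, 6 members were lower in HepG2 than in Caco2 (10 reported) and 3 lower in SK-Mel 28 than in SK-Mel 24 (8 reported); tested against 2-fold itself, 3 were higher in SK-Mel 28 (6 reported); and 6 enriched members had 1 TPM or more (10 reported). Of the 5 members enriched in HepG2, 3 lost the call with library totals only (CYP1A2, CYP3A7 and CYP46A1). Without HepG2 replicate 1, 2 lost it (CYP1A2 and CYP46A1), as did 2 on protein-coding transcripts only (CYP3A7 and CYP46A1). CYP46A1 also lost it under DESeq2, and CYP1A2 with no low-count filter, without RT4 replicate 1 and without U2-OS replicate 2. Called differences turned sign for CYP27B1 (0.51 log2 on protein-coding transcripts only) and CYP2U1 (-0.30 with library totals only) in HepG2 against Caco2. Differences that had not been called turned sign and were then called for CYP24A1 in HepG2 against Caco2 (-1.12 with library totals only) and for CYP2E1 SK-Mel 28 against SK-Mel 24 (-3.56 on protein-coding transcripts only). Other differences that were called under neither setting also turned sign, among them CYP2W1 and CYP2E1 in HepG2 against Caco2. The cause was not tested. Leaving out each of 27 libraries gave 17 to 20 higher and 8 to 11 lower members in HepG2 against Caco2, 4 to 6 higher and 6 to 8 lower in SK-Mel 28 against SK-Mel 24, 10 to 13 enriched, 36 to 38 differing over the lines, and 23 to 25 at 1 TPM; the filter admits more genes when a line has fewer libraries. Calls of CYP19A1, CYP20A1, CYP3A5, CYP2U1 and CYP7B1 in HepG2 against Caco2, and of CYP20A1 between the melanoma lines, were lost under 5 to 8 alternatives each. Without HepG2, 12 members were enriched, 5 of them shared with the 10. No paired analysis was possible because replicate numbers follow accession order. Members under 1 TPM rest on few counts, and depth limits what can be said of them.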
